A study of Mus musculus with 48 samples.

Results

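The elements described here are the 1125 reporter elements of the IPC class whose names carry the tag unc. They were taken from the deposited activity table by class and name alone, out of 11709 elements in all, of which 10713 were not scrambled. The IPC class held 2991 elements, and the remaining ones carried the tag asc (734 elements) or desc (1132 elements). The sources used here do not say what the 3 tags stand for, so the elements are called by them. Another 996 elements were scrambled sequences, which served as controls.

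The elements were tested in a massively parallel reporter assay, in which many DNA elements are placed in reporter plasmids together and the reporter RNA is set against the plasmid DNA. The library was electroporated in utero into the somatosensory cortex of C57BL/6JRj (Haplotype H2b) mouse embryos at embryonic day (E) 12 to 16, and the cells were collected 24 h later, that is from E13 to E17. At each age, Tbr2-positive intermediate progenitor cells (IPC) and Pax6-positive neural stem cells (NSC) were sorted from fixed cells that were also stained for Tubb3. There were 24 biological samples, sequenced as paired DNA and RNA libraries: 3 for either cell type at E14 and at E15, and 2 at the remaining ages. All groups shared strain, tissue, set of elements and interval. The table gave every element 1 value in each pairing of a cell type with an age (10 columns), combined by the authors over the samples, so the spread between embryos is not known. Purity of the sorted cells cannot be read from reporter RNA.

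In the developing cortex, neural stem cells carry the transcription factor Pax6, line the ventricle and divide to renew themselves or to give rise to intermediate progenitors. Intermediate progenitors carry Tbr2 (the product of Eomes), lie mostly in the subventricular zone and divide to make neurons of the cortical layers. Enhancers are DNA elements that raise transcription of genes in the cell types that hold the right transcription factors, and a plasmid reporter reads that capacity outside the chromosome of origin. The names of these elements give a running number (IPC.seqs_unc.IPC_280 is written here as IPC_280), not a position, so genome location and nearby genes were not analysed here and no sequence is shown.

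Of the 1125 elements, 1053 had a value in each of the 10 columns and 72 did not. Among those 72, 34 lacked 1 value, 12 lacked 5 or more and 1 lacked all 10. All 5 IPC values were present for 1069 elements and all 5 NSC values for 1076. The scrambled median of the authors' score ranged from 0.164 in NSC at E13 to 2.37 in NSC at E17, and each score was therefore expressed relative to it. Activity is given either as this ratio (times the scrambled median) or as its log2 with a pseudocount of 0.1, less the scrambled mean of the column, so that 0 is the average control. On that log2 scale, the shortfall of nearly inactive elements below the controls is understated.

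The unc elements were more active than the scrambled controls in all 5 IPC columns and in 4 of the 5 NSC columns. In IPC their mean (log2) stood at 0.25, 0.27, 0.24, 0.29 and 0.35 from E13 to E17. In NSC it stood at -0.06, 0.12, 0.19, 0.18 and 0.21 from E13 to E17. The NSC column at E13 was thus the single one below the controls. Over the 10 columns the mean was 0.20 above scrambled, in 9 of 10 columns (exact permutation of signs over columns, two-sided p = 0.00391, adjusted p = 0.0195 over 10 comparisons). The test treats columns as independent, although they hold the same elements. Without any 1 age, the mean was 0.18 to 0.23, and the permutation p was 0.0078 (without E13, the smallest that 8 columns can give) or 0.0156 (adjusted p 0.0571 to 0.0952).

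Mean activity was higher in intermediate progenitors than in neural stem cells at each of the 5 ages. The difference was 0.31, 0.15, 0.05, 0.11 and 0.14 from E13 to E17 (log2), largest at E13 and smallest at E15. For the median element the order was reversed at E15, with 1.20 times the scrambled median in IPC and 1.25 times in NSC. At the other ages the median, too, was higher in IPC. The class mean was 0.28 ± 0.04 in IPC and 0.13 ± 0.11 in NSC (SD over n = 5 ages). The difference of 0.15 had p = 0.00794 in an exact permutation of columns between the cell types, the smallest that 5 against 5 columns can give, and an adjusted p of 0.0198. Without any 1 age the difference was 0.11 (without E13) to 0.18 (without E15). The permutation p was then 0.0286, the smallest that 4 against 4 columns can give, with an adjusted p of 0.0571 to 0.0952, so these values do not show whether the call is stable. The call was lost when the median over elements replaced the mean (0.09, adjusted p = 0.340) and on the authors' MAD score (adjusted p = 0.265). With the ages paired, where no p under 0.062 is possible, the adjusted p was 0.125. Of the 1053 elements with all values, 610 had a higher mean in IPC and 443 a higher mean in NSC, so 57.9% leaned to IPC, against 51.4% of scrambled controls. All non-scrambled elements together averaged 0.13 in IPC and 0.12 in NSC.

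**Figure D1:**
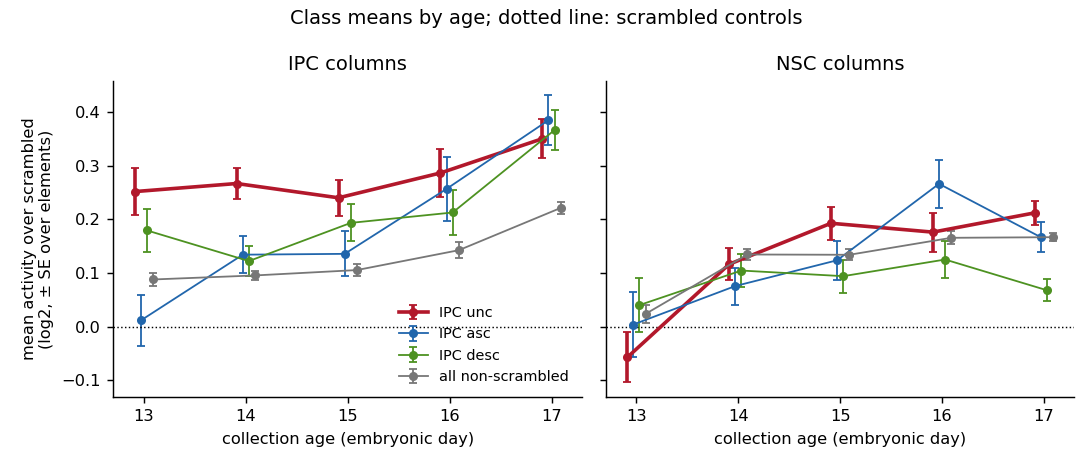
Mean activity over scrambled (log2, ± SE over elements) against collection age (embryonic day), for IPC columns on the left and NSC columns on the right. The unc elements stay between 0.24 and 0.35 in IPC, while in NSC they start at -0.06 at E13 and lie between 0.12 and 0.21 afterwards. The SE covers the spread of elements only, not that of embryos.

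The same tag in the NSC class gave the opposite order. NSC elements tagged unc (905 elements) averaged 0.10 in IPC and 0.32 in NSC (log2). The IPC elements stood 0.18 above them in IPC columns and 0.19 below them in NSC columns. This contrast between cell types was 0.37, with the same sign at 5 of 5 ages (exact permutation of columns, p = 0.00794, adjusted p = 0.0198). Without any 1 age it was 0.34 to 0.39, each time with the smallest p that 4 against 4 columns can give (adjusted p 0.0571 to 0.0952). With ages paired the adjusted p was 0.125, again from the smallest possible p. The Mature elements tagged unc (1313 elements) averaged 0.03 in IPC and -0.01 in NSC.

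Within the IPC class, no difference between the tags passed the test. The unc elements exceeded the asc elements by 0.05 on average, in 7 of 10 columns (exact sign permutation, p = 0.160, adjusted p = 0.206). The difference from asc ranged over ages from -0.03 to 0.24 in IPC and from -0.09 to 0.07 in NSC. They exceeded the desc elements by 0.05 as well, in 8 of 10 columns (exact sign permutation, p = 0.0527, adjusted p = 0.105), with a range of -0.02 to 0.14 in IPC and -0.10 to 0.14 in NSC. Restricted to elements with a value in each column, the difference from desc was 0.06 and passed the threshold (exact permutation, adjusted p = 0.0488). The preference for IPC columns was 0.09 larger in unc than in asc elements (exact permutation, adjusted p = 0.206) and 0.02 larger than in desc elements (exact permutation, adjusted p = 0.683). The preference relative to desc took the other sign under the median over elements (-0.0026), without E13 (-0.0142) and without E14 (-0.0050). A p-value above the threshold does not show that the tags act alike.

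Activity of the unc elements rose with age by 0.041 per day on average (log2), by 0.022 per day in IPC and by 0.060 per day in NSC. The exact permutation of ages within each cell type gave p = 0.00306 and an adjusted p of 0.0195. In the same permutation test the call was lost without E13 (0.028 per day, adjusted p = 0.0571), without E14 (0.045 per day, adjusted p = 0.0714), without E16 (0.043 per day, adjusted p = 0.0714) and without E17 (0.043 per day, adjusted p = 0.139), as well as in elements with all values (0.033 per day, adjusted p = 0.062) and on the authors' MAD score (adjusted p = 0.456). All non-scrambled elements moved by 0.031 per day in IPC and 0.032 in NSC, and whether the unc elements differ from these was not tested. The asc elements moved by 0.087 per day in IPC and 0.052 in NSC, and the desc elements by 0.047 in IPC and 0.008 in NSC. Averaged over the cell types, the slope of unc elements was 0.028 per day lower than that of asc elements (exact permutation, adjusted p = 0.206). It was 0.014 per day higher than that of desc elements (exact permutation, adjusted p = 0.514). Both averages combine opposite signs. The difference from asc was -0.065 per day in IPC and 0.008 in NSC, and that from desc -0.025 in IPC and 0.052 in NSC. Neither averaged difference passed the threshold, and the one from desc took the other sign without E13.

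As raw ratios, the median unc element lay near the scrambled median in each column, and the 95th percentile of unc elements exceeded that of scrambled controls in each IPC column and in 4 of the 5 NSC columns. In IPC columns the median unc element had 1.11, 1.14, 1.20, 1.25 and 1.32 times the scrambled median from E13 to E17. In NSC columns the median was 0.942, 1.12, 1.25, 1.16 and 1.15 from E13 to E17. In IPC the 95th percentile of unc elements was 11.8, 4.04, 5.14, 8.10 and 5.87 times the scrambled median from E13 to E17, against 6.13, 2.39, 4.06, 5.32 and 3.49 times for scrambled controls. In NSC it was 6.99, 3.54, 3.63, 4.97 and 2.83 times for unc elements, against 8.0, 3.30, 3.42, 4.57 and 2.25 times for controls. The controls were thus higher in NSC at E13, and the distance was small in NSC at E14 to E16.

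Averaged over the 5 IPC columns, the unc elements exceeded the controls by more at each step up the distribution. The 10th percentile was -0.49 for unc elements and -0.60 for scrambled controls, and the median 0.23 and 0.01. The 90th percentile was 1.17 for unc elements and 0.60 for controls, the 95th 1.62 and 0.83, and the 99th 2.34 and 1.24. The 95th percentile was 1.23 for asc and 1.37 for desc elements. In NSC columns the gap was narrower, with a median of 0.11 for unc elements and -0.01 for controls and a 95th percentile of 1.12 and 0.85.

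**Figure D2:**
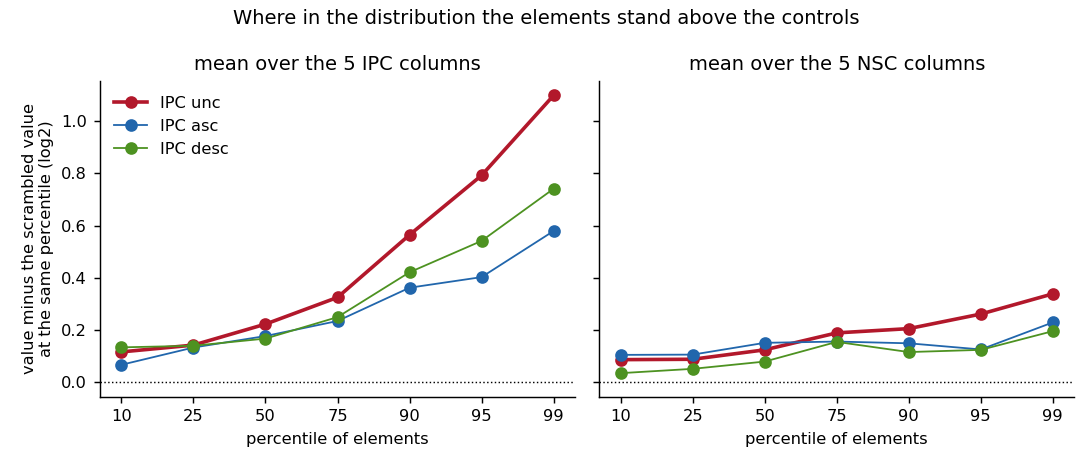
Activity of the unc, asc and desc elements minus that of scrambled controls at the same percentile (log2), for the mean over IPC columns on the left and over NSC columns on the right. In IPC the unc curve climbs from 0.12 at the 10th percentile to 1.10 at the 99th, whereas in NSC it reaches 0.34.

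For single elements, limits were set that leave 2.5% of scrambled controls on either side. In IPC, 162 of 1069 unc elements lay above the upper limit of 0.98, or 15.2% (95% Wilson interval 13.1 to 17.4, which covers counting error only), against 8.61% of all non-scrambled elements. The share was 9.26% of asc, 11.3% of desc and 5.98% of NSC unc elements. It was 21.3% of elements of the E14 class, so the unc elements were not the most often active ones in the table. In NSC, 64 of 1076 unc elements (5.95%) passed the upper limit, close to the 6.05% of all non-scrambled elements. Few lay below the lower limits: 15 in IPC (1.40%, against 2.05% of non-scrambled elements) and 25 in NSC (2.32%, against 2.15%).

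The difference between cell types passed the upper limit of 1.22 in 82 of 1053 unc elements (7.79%, against 5.15% of non-scrambled and 2.51% of scrambled elements). It passed the lower limit, towards NSC, in 15 (1.42%, against 3.01%). Activity was higher in IPC at each of the 5 ages for 68 elements (6.46%, against 4.40% of non-scrambled and 2.62% of scrambled elements). The share was 7.07% of desc and 4.39% of asc elements. With 1 age left out, 102 to 119 unc elements kept this order at the remaining 4 ages (9.69% to 11.3%, against 7.26% to 8.18% of non-scrambled elements). The reverse order at each age held for 31 unc elements (2.94%), against 4.13% of non-scrambled and 3.14% of scrambled elements. With 1 age left out, 56 to 69 did so (5.32% to 6.55%, against 7.15% to 8.04% of non-scrambled elements).

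Slopes beyond the limits were near the background. In IPC, 51 unc elements rose faster than the limit (4.77%, against 4.56%) and 54 fell faster (5.05%, against 3.86%). In NSC, 41 rose faster (3.81%, against 3.33%) and 17 fell faster (1.58%, against 2.46%). Elements above the scrambled median in each of the 5 IPC columns numbered 165 (15.4%, against 8.95% of non-scrambled and 4.15% of scrambled elements). In the 5 NSC columns 125 were so (11.6%, against 9.55%), and 43 were above it in each of the 10 columns (4.08%, against 2.41% of non-scrambled and 0.419% of scrambled elements).

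The authors' deposited table also gives an adjusted p for each value, and a value was counted as called where it was under 0.05. The calls are one-sided, for activity above the controls, and scrambled elements passed often: 6.66% to 15.7% of them in IPC columns and 6.16% to 13.3% in NSC columns. In IPC the share of unc elements called was 24.1%, 17.2%, 17.9%, 19% and 22.1% from E13 to E17. The share of all non-scrambled elements called there was 19.6%, 11.3%, 14.9%, 16.1% and 18.7% from E13 to E17, lower than that of unc elements at each age. In NSC the unc share was 13.7%, 13.5%, 13%, 18.7% and 13.1% from E13 to E17. The non-scrambled share in NSC was 15.3%, 14.7%, 12.5%, 19.4% and 13% from E13 to E17, on both sides of that of unc elements.

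Repeated calls set the elements further apart from the controls. At least 3 of the 5 IPC columns called 102 unc elements (9.07%), against 5.00% of non-scrambled and 1.20% of scrambled elements, 6.13% of asc and 5.48% of desc. With E13, E14, E15, E16 or E17 left out, at least 3 of the 4 other IPC columns called 49, 57, 65, 68 or 64 unc elements (4.36% to 6.04%, against 2.59% to 3.13% of non-scrambled elements). At least 3 of the 5 NSC columns called 46 (4.09%), against 4.66% of non-scrambled and 1.31% of scrambled elements. With E13, E14, E15, E16 or E17 left out, at least 3 of the 4 other NSC columns called 17, 22, 20, 22 or 26 unc elements (1.51% to 2.31%, against 2.12% to 2.60% of non-scrambled elements). At an adjusted p under 0.01, at least 3 of 5 columns called 66 unc elements in IPC and 18 in NSC. The shares of other elements at that threshold are not given here, so these counts are not set against a background. Both lists at 0.05 shared 16 elements (1.42% of the unc elements, against 0.560% of non-scrambled elements), which are 15.7% of the IPC list and 34.8% of the NSC list. At least 3 IPC columns and 0 NSC columns called 34 elements (3.02%, against 1.82%), and the reverse held for 7 (0.622%, against 1.42%). No column of the 10 called 260 elements (23.1%, against 26.3% of non-scrambled and 36.9% of scrambled elements).

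**Figure D3:**
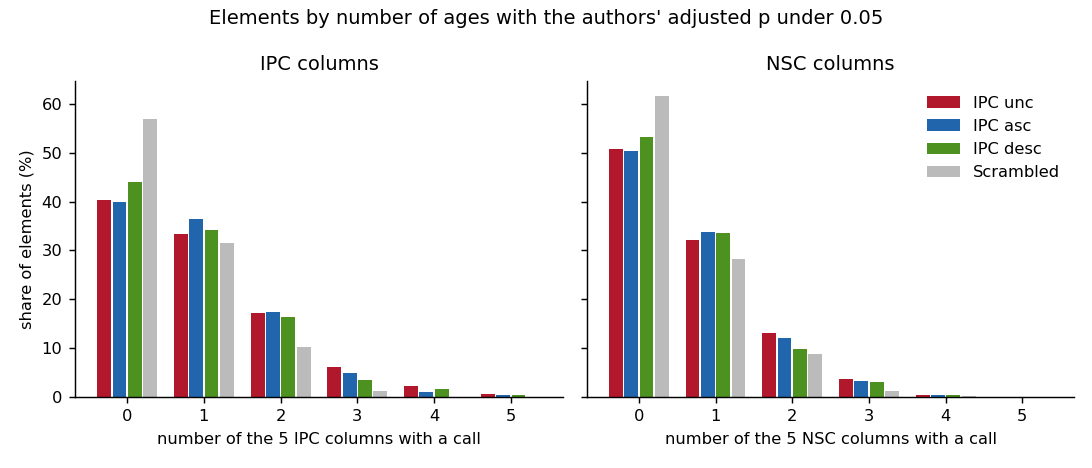
Share of elements (%) by the number of columns with the authors' adjusted p under 0.05, for IPC columns on the left and NSC columns on the right, in unc, asc, desc and scrambled elements. In IPC, 6.13% of unc elements have 3 calls, 2.31% have 4 and 0.622% have 5, while 1.20% of scrambled elements have 3 and none has 4 or 5.

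Each of the 5 IPC columns called 7 unc elements (0.622%, against 0.252% of non-scrambled elements), which are IPC_1553, IPC_818, IPC_976, IPC_1480, IPC_876, IPC_856 and IPC_216. The last was named after its values were seen, and the others also fall under the rule for named elements. The 5 NSC columns called 0 unc elements (against 0.0933% of non-scrambled elements), and 0 elements were called in 10 of 10 columns. IPC_216 had 9.75, 2.41, 2.98, 8.96 and 3.70 times the scrambled median in IPC from E13 to E17, against 0.571, 1.51, 2.97, 1.83 and 1.30 in NSC. Its values in the cell types were level at E15 and higher in IPC at the other ages.

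Single columns were weakly correlated with each other. The columns of a cell type are of different ages, so these correlations do not separate change with age from measurement noise. Over the 1053 elements with all values, Spearman's rho between pairs of IPC columns had a median of 0.17 (0.08 to 0.26 over 10 pairs) for unc elements and 0.06 for scrambled controls. Between pairs of NSC columns it was 0.11 for unc elements. Between the IPC and NSC columns of the same age it had a median of 0.16 for unc elements (0.10 to 0.22 over 5 ages), close to that between IPC columns. The mean over IPC columns and the mean over NSC columns had a rho of 0.29 in unc elements and 0.08 in controls. These correlations are across elements measured in the same columns, and are given as a description. An element's SD over the 5 IPC columns had a median of 0.89 (log2), larger than the class mean of 0.28.

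Elements that were high at one age were, at most ages, also higher at the others. The 106 unc elements in the top 10% of IPC at E13 averaged 0.85 over the other 4 IPC columns, against 0.25 for the rest. The value was 0.84 for the top elements at E14 (rest 0.25), 0.59 for those at E15 (rest 0.29) and 0.69 for those at E17 (rest 0.24). The top elements at E16 averaged 0.27 in the other columns (SD 0.72 over elements) and the rest 0.31. As a group, the top elements of that column were thus not higher elsewhere, although single elements could be. For E16, the values of top and rest were 0.17 and 0.18 in asc and 0.26 and 0.24 in desc elements. In scrambled controls the top 10% of a column averaged between -0.03 and 0.11 elsewhere. The IPC column at E16 was combined from 2 biological samples, as were those at E13 and E17.

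The highest mean over IPC columns belonged to IPC_1553 (2.93, log2), and 1 column carried much of it. It had 312, 2.84, 3.37, 4.93 and 3.32 times the scrambled median in IPC from E13 to E17, against 1.26, 1.99, 1.64, 21.6 and 9.06 in NSC. Without E13 its IPC mean was 1.68, and its difference between cell types was -0.50 instead of 1.14. The highest scrambled control in the same column reached 462 times the scrambled median, so a single value of this size also occurs among controls.

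IPC_348 (mean 2.74) was above the scrambled median in each IPC column, and the authors called it in 4 of them. The exception was E16, where its value lay below the 95th percentile of scrambled controls (5.32 times). It had 20.0, 10.3, 7.12, 2.76 and 6.66 times the scrambled median in IPC from E13 to E17, against 3.59, 1.98, 3.84, 1.08 and 2.07 in NSC. Each IPC value exceeded the NSC value of the same age, and the values of the cell types overlapped across ages.

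IPC_818 (mean 2.73) and IPC_976 (2.60) were both high in IPC and near the controls in NSC. IPC_818 had 27.3, 9.57, 2.66, 3.86 and 9.52 times the scrambled median in IPC from E13 to E17, against 1.64, 1.63, 1.18, 0.751 and 0.768 in NSC. IPC_976 had 48.4, 4.19, 6.55, 3.83 and 3.18 times in IPC, against 0.835, 0.765, 0.864, 1.61 and 1.22 in NSC. In both elements the lowest IPC value was above the highest NSC value. The elements compared in this way were picked for high IPC means or large differences. A lack of overlap, in these and in those below, therefore only describes them. The share of all elements without overlap is not given. The authors called both in 5 IPC columns and 0 NSC columns. Their differences between cell types, 2.63 for IPC_818 and 2.64 for IPC_976, were the largest towards IPC among elements with the same sign at each age, and stood at 2.33 and 1.91 without E13.

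IPC_856 showed the same pattern at a lower level. It had 9.61, 5.00, 2.57, 4.20 and 2.99 times the scrambled median in IPC from E13 to E17, against 0.425, 1.04, 0.919, 1.12 and 1.78 in NSC. Its groups did not overlap either, and its mean difference was 2.04. IPC_1035 (difference 2.01) and IPC_125 (1.98) were also higher in IPC at each age, and each was called in 3 IPC columns and 0 NSC columns. IPC_1035 had 1.10 to 21.0 times the scrambled median in IPC and 0.564 to 1.68 in NSC. IPC_125 had 1.32 to 9.40 times in IPC and 0.359 to 1.44 in NSC, so that the cell types overlapped in both elements.

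The other elements among the 10 highest in IPC differed in their NSC values. Their NSC means ran from 0.46 (IPC_1052) to 1.21 (IPC_1086), around the upper scrambled limit of 1.06. The authors called them in 1 to 4 NSC columns. IPC_1562 (mean 2.55) had 18.9, 6.85, 4.74, 2.63 and 8.41 times the scrambled median in IPC, against 1.97, 2.26, 3.28, 2.31 and 2.19 in NSC. IPC_1480 (mean 2.55) had 33.7, 7.56, 3.61, 3.57 and 4.09 times in IPC, against 2.49, 1.77, 1.40, 2.77 and 1.37 in NSC, without overlap. Both stayed above 1 in each column.

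IPC_876 (mean 2.38) varied least over ages in IPC among these 10, with an SD of 0.59. It had 7.41, 3.26, 9.92, 7.20 and 4.33 times the scrambled median in IPC, against 0.306, 3.81, 3.49, 3.72 and 3.71 in NSC. The authors called it in 5 IPC columns and 4 NSC columns, with E13 the exception in NSC. Without E13 its difference between cell types was 0.61, against 1.30 with it. IPC_1086 (mean 2.36) was called in 3 columns of each cell type, with 2.51 to 26.6 times the scrambled median in IPC and 2.07 to 4.18 in NSC.

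IPC_1052 (mean 2.42) and IPC_728 (2.36) were less even. IPC_1052 had 29.6, 4.41, 9.01, 1.19 and 5.96 times the scrambled median in IPC, against 0.930, 1.17, 3.0, 1.86 and 1.15 in NSC, and so lay below its NSC value at E16. IPC_728 had 23.9, 2.33, 2.02, 15.3 and 3.95 times in IPC, against 3.54, 0.369, 5.30, 1.64 and 1.61 in NSC, with E15 as the age of reversed order. For 9 of the 10 elements the E13 value was the highest of the 5 in IPC, and IPC_876 was the exception. The IPC column at E13 was also the one in which scrambled controls were called most often (15.7%).

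**Figure D4:**
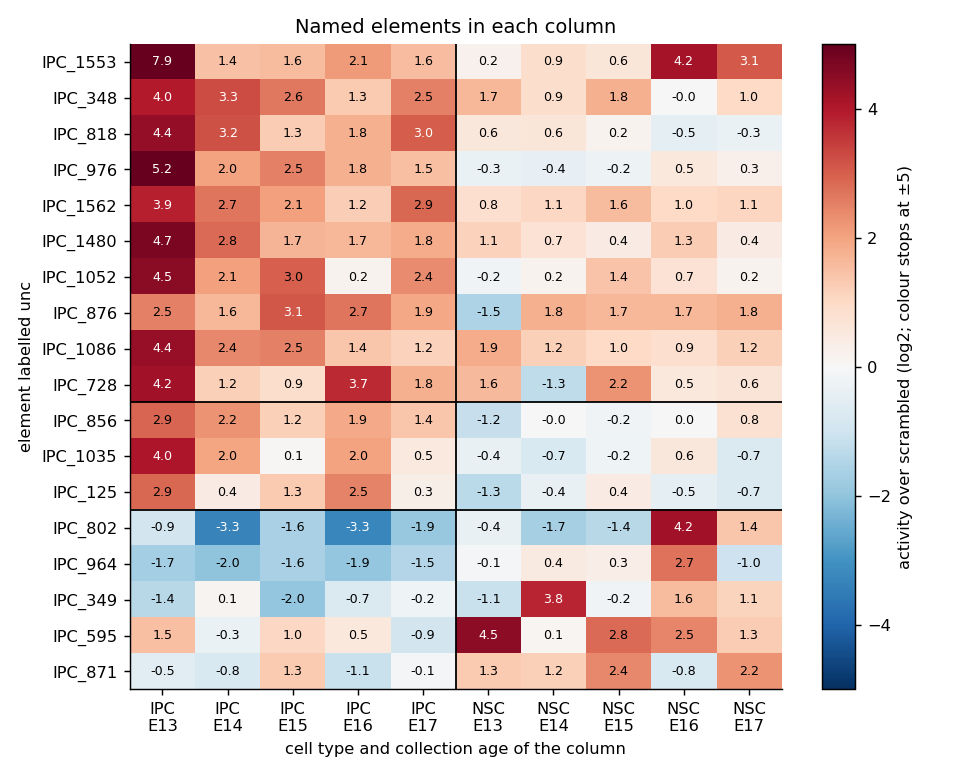
Activity over scrambled (log2) of 18 named unc elements in the 5 IPC columns (left) and 5 NSC columns (right), E13 to E17. The upper block holds the 10 highest IPC means, the middle block the other elements with the largest differences towards IPC and the lower block those towards NSC. The IPC E13 column is the darkest in the upper block, up to 7.92 for IPC_1553.

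Some unc elements were higher in neural stem cells at each age, contrary to the class mean. They numbered 31 (2.94%, against 3.14% of scrambled and 4.13% of non-scrambled elements), so they were no more frequent than among controls. IPC_595 had 3.52, 0.759, 2.26, 1.58 and 0.517 times the scrambled median in IPC from E13 to E17, against 25.8, 1.12, 8.0, 6.45 and 2.53 in NSC. The authors called it in 1 IPC and 4 NSC columns, and its mean of 2.22 ranked 2 in NSC. IPC_871 had 0.789, 0.527, 2.76, 0.436 and 1.02 times in IPC, against 2.80, 2.49, 5.94, 0.603 and 5.10 in NSC. Both pairs of values overlapped across ages, and the differences averaged -1.86 and -1.51.

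The remaining 3 elements named for differences towards NSC had IPC means further below the controls. These means were -2.20 for IPC_802, -1.74 for IPC_964 and -0.83 for IPC_349, against -0.24 for IPC_871. IPC_802 (difference -2.64) had 0.592, 0.00717, 0.277, 0.0204 and 0.211 times the scrambled median in IPC, against 0.812, 0.262, 0.330, 21.8 and 2.80 in NSC. Without E16 its difference was -1.43, and with a pseudocount of 0.5 it was -1.73. IPC_964 (-2.21) had 0.170 to 0.322 times in IPC, against 0.433 to 7.72 in NSC, and its groups did not overlap. IPC_349 (-1.87) had 0.199 to 1.07 times in IPC and 0.442 to 16 in NSC. In each of these 3 elements a single NSC column, E16 for IPC_802 and IPC_964 and E14 for IPC_349, held the highest value.

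IPC_203, named after its values were seen, had the highest NSC mean of the unc elements (2.59) and was high in IPC as well (2.33). It had 1.62, 5.82, 1.69, 27.9 and 13.5 times the scrambled median in IPC from E13 to E17, against 15.8, 19.2, 5.61, 4.13 and 1.99 in NSC. It was higher in NSC at E13, E14 and E15 and higher in IPC at E16 and E17. The authors called it in 3 IPC columns and 4 NSC columns.

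**Figure D5:**
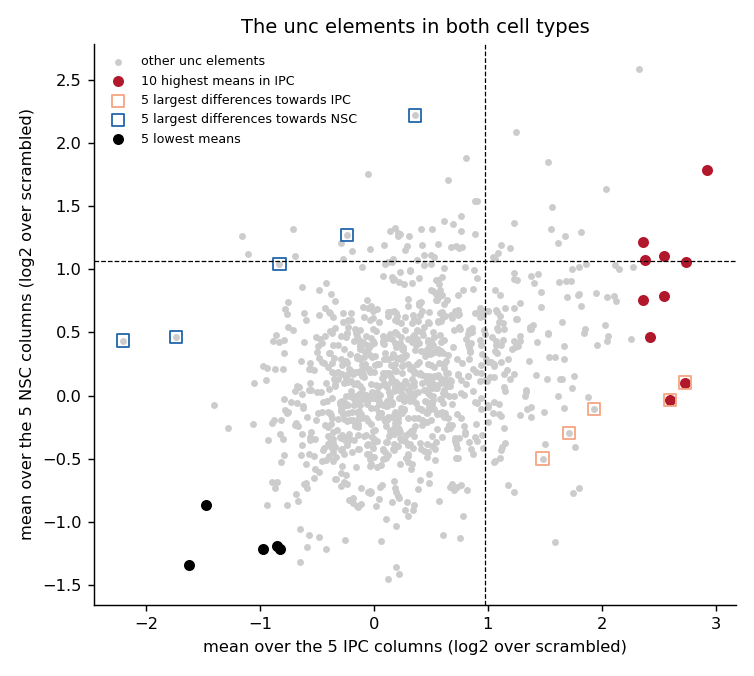
Mean over the 5 NSC columns against mean over the 5 IPC columns (log2 over scrambled) for the 1053 unc elements with all values, with dashed lines at the limits that 2.5% of scrambled controls exceed (0.98 in IPC, 1.06 in NSC). More points lie right of the vertical line than above the horizontal one.

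The steepest changes with age, among elements that moved the same way in both cell types, rested mostly on 1 or 2 columns. IPC_238 had 0.735, 0.0496, 10.2, 4.45 and 0.645 times the scrambled median in IPC from E13 to E17, against 0.164, 1.02, 0.00362, 157 and 3.59 in NSC. Its mean slope was 0.98 per day, 0.54 per day without E16 and 1.90 per day without E17. IPC_800 had 0.292, 2.17, 1.21, 10.1 and 9.64 times in IPC, against 0.112, 2.72, 2.16, 0.569 and 2.37 in NSC. Its values at E16 and E17 in IPC were above those at the earlier ages. Its mean slope was 0.84 per day, and 0.33 per day without E13. Without E13 its slope was 0.89 per day in IPC and -0.22 per day in NSC, so the shared direction was lost. The mean slope of IPC_1482 was 0.81 per day, and 0.40 per day without E13.

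Among the falling elements, IPC_1100 had 73.6, 3.19, 5.77, 2.83 and 0.712 times the scrambled median in IPC, against 4.64, 2.04, 0.555, 4.43 and 0.799 in NSC. IPC_832 had 54.5, 1.35, 1.28, 1.09 and 0.427 times in IPC, against 12.3, 0.580, 1.92, 0.278 and 0.674 in NSC. The mean slope of IPC_832 was -1.11 per day, and -0.33 per day without E13. That of IPC_119 was -0.77 per day, and -0.30 per day without E13. The highest values of all 3 falling elements were those at E13 in both cell types.

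At the low end, the means over the 10 columns were -1.48 for IPC_1346, -1.17 for IPC_1898, -1.10 for IPC_176 and -1.02 for both IPC_1794 and IPC_287. IPC_1898 had 0.250, 0.335, 0.277, 0.417 and 0.342 times the scrambled median in IPC, against 0.189, 1.05, 0.430, 0.491 and 0.839 in NSC. IPC_287 was below the scrambled median in each column, with 0.441 to 0.672 times in IPC and 0.122 to 0.662 in NSC. IPC_1794 had 1 high value, 6.31 times the scrambled median in NSC at E13, and 0.00491 to 0.953 times in its other columns. A reporter value below the scrambled median says that less RNA was read than from the typical control, and none of these elements was tested for it.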

How the data were processed

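Values came from the authors' deposited table, which gives per column an activity score (statistic), a MAD score and an adjusted p-value. Judged by its values, the score was never negative, and it was treated as linear. The column names do not state its scale. The authors' MAD score equals the score less the scrambled median, divided by 1.4826 times the scrambled median absolute deviation (to within 4.66e-12). The authors' p-value is a one-sided (upper) normal p from the MAD score, adjusted per column by the Benjamini-Hochberg method (largest difference 6.11e-15). Per the submitters' processing notes, the tools and builds include cutadapt and mm10. Aligner, counting and the tool behind the score were not given in the sources used here. Depth is unknown.

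Scores were divided by the scrambled median of the column, and log2(ratio + 0.1) was taken, less the scrambled mean. Class means per column were compared by exact two-sided permutations of columns (signs, cell types, or ages within cell types), adjusted over 10 comparisons by the Benjamini-Hochberg method and tested on simulated data. With 1 combined value per column, tests over biological samples were not made. Unmatched value columns numbered 0. Python 3.11.15, numpy 2.4.6, pandas 2.3.3, scipy 1.17.1 and matplotlib 3.10.9 were used.

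The members and lists were chosen with earlier results of these data known. Among elements with all 10 values, the rule named the 10 highest IPC means, the 5 largest differences towards each cell type with the same sign at 5 ages, the 3 steepest slopes in each direction with the same sign in both cell types, and the 5 lowest means. Alternatives were pseudocounts of 0.05 and 0.5, the median over elements, the MAD score, complete elements, the Mature class as scale, limits passed by 1% or 5% of controls, call thresholds of 0.01 and 0.1, pairing by age and leaving out each age.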

Additional observations from a re-analysis of the deposited data

Results flagged for a closer look

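Both results set IPC against NSC columns. For the IPC elements tagged unc, the mean was 0.15 higher in IPC than in NSC columns (log2), at 5 of 5 ages (exact permutation of columns, p = 0.00794, adjusted p = 0.0198). The contrast of these elements with the NSC elements tagged unc differed by 0.37 between IPC and NSC columns, at 5 of 5 ages (exact permutation of columns, p = 0.00794, adjusted p = 0.0198). The p of both is the smallest that 5 against 5 columns can give, and in the exact sign permutation with ages paired, whose smallest p is above the threshold, the adjusted p of both was 0.125. IPC and NSC columns of an age shared the embryonic age at electroporation. Whether they came from the same embryos was not analysed here.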

How the results depend on the processing

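No paired analysis was possible by replicate number because the columns carry none. Pairing the columns by age left 0.15 (IPC minus NSC) and 0.37 (against NSC unc), both with an adjusted p of 0.125 in the exact permutation. With the median over elements, IPC minus NSC was 0.0947 (exact permutation, adjusted p = 0.340) and the unc minus desc difference between cell types -0.0026. On the MAD score, IPC minus NSC was 0.62 (exact permutation, adjusted p = 0.265), the slope 0.13 per day (adjusted p = 0.456), and 94 elements passed the IPC limit. In complete elements, unc minus desc was 0.0568 (exact permutation, adjusted p = 0.0488) and the slope 0.0325 per day (adjusted p = 0.062). A limit passed by 1% of controls left 95 elements, against 162, and calls at 0.01 left 66, against 102. The shares of all non-scrambled elements under these settings and on the MAD score are not given here. The counts are thus not set against a background.

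Leaving out each age gave ranges of 0.184 to 0.230 for unc minus scrambled, 0.112 to 0.177 for IPC minus NSC, 0.342 to 0.392 for the contrast with NSC unc, -0.0142 to 0.0684 for the contrast with desc between cell types, 0.0284 to 0.0449 for the slope, and -0.0052 to 0.0220 for the slope less that of desc. The first 3 kept their sign, with an adjusted p of 0.0571 to 0.0952 each time. For both contrasts between cell types this came from the smallest p that 4 against 4 columns can give (0.0286), so it says nothing about stability. The slope kept its call only without E15. Calls in at least 3 of 4 IPC columns numbered 49 to 68, with 49 without E13 (4.36%, against 2.59% of non-scrambled elements), and elements higher in IPC at 4 of 4 ages 102 to 119, since 4 ages are a looser rule. Pseudocounts of 0.05 and 0.5 changed no call. Depth and the spread between embryos, which could limit any single value, are unknown.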
